A study of Mus musculus with 6 samples.

Results

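Oligodendrocyte precursors and the newly formed oligodendrocytes that follow them are marked by different genes, and 10 such genes were read out in neural stem cells (NSCs) with and without miR-151. They were 4 precursor genes, *Pdgfra*, *Cspg4*, *Lhfpl3* and *Matn4*, and 6 genes of the newly formed stage, *Bcas1*, *Enpp6*, *Gpr17*, *Tmem163*, *Itpr2* and *Tns3*, among the 32493 genes of the count table. The genes were selected on their fold changes between the genotypes in these same libraries, *Matn4* and the newly formed genes being lower in cko and the other precursor genes not. Their levels and fold changes are therefore given as a description, without a p-value, and nothing is inferred from how many of them changed. The RNA-seq libraries came from NSCs of the lateral ventricles of mouse embryos at E14.5, kept in culture for 3 generations with B27, EGF and bFGF. The cko embryos were fl/fl for miR-151 and carried Emx1-IRES-Cre, which expresses Cre recombinase in the dorsal telencephalon. The ctrl embryos were fl/fl littermates without Cre, so the floxed allele was shared by the groups, and the sample labels call them wt. The mice were on a C57BL/6J background. The sources used here do not say which embryos or litters the libraries came from, so that the spread between libraries may in part be technical.

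In the developing brain, precursors divide and migrate under the growth factor PDGF-A, which they sense through the receptor PDGFRα, and they carry the proteoglycan NG2 on their surface. When a precursor leaves the cell cycle it passes through a short committed and newly formed stage, in which GPR17 and BCAS1 appear, before the myelin genes are fully expressed. The factors OLIG2 and SOX10 act along the whole lineage, and MYRF, itself a target of SOX10, is needed for the later steps.

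Counts came as 3 ctrl and 3 cko columns, but the column of ctrl replicate 2 equalled the rounded-up mean of ctrl replicates 1 and 3 in 32493 of 32493 genes and was counted in no n, which left 2 ctrl and 3 cko libraries of 17883796 to 23335736 counts. Levels are CPM, counts scaled to a common library size by the TMM method, log2FC is the log2 ratio of cko to ctrl with its standard error (SE) from edgeR, and a level of 3 counts corresponds to 0.129 to 0.168 CPM, a floor that covers counting error only. Of 11 NSC markers listed, *Sox2*, *Nes*, *Vim*, *Fabp7* and *Slc1a3* each lay at 471 CPM or more in every library. *Sox1*, *Msi1* and *Hes5* lay at 69.2 to 140 CPM, *Pax6* at 44.9 to 51.9 and *Emx2* at 26.0 to 31.0 CPM. The oligodendrocyte lineage factors *Olig1* and *Olig2* lay at 1097 to 1994 and at 539 to 819 CPM. *Emx1*, whose promoter drives the Cre, had only 10 and 9 counts in the ctrl libraries and 1, 4 and 6 in the cko libraries. Other features moved with genotype as well. *Xist*, which is expressed from the inactive X chromosome, lay at 2889 and 2557 CPM in ctrl and at 787, 849 and 894 CPM in cko libraries, and the Y-linked *Kdm5d* at 25.1 and 27.0 against 68.9, 69.2 and 67.6 CPM. The proliferation gene *Mki67* lay at 254 and 269 against 539, 705 and 683 CPM. Whether sex composition or proliferation had a part in the values below was not tested.

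All 10 genes passed the filter on low counts. In GRCm38, *Pdgfra* (ENSMUSG00000029231) lies on the plus strand of chromosome 5 from 75152292 to 75198215, and *Lhfpl3* (ENSMUSG00000106379) on the same strand of that chromosome from 22746059 to 23275597. *Cspg4* (ENSMUSG00000032911) lies on chromosome 9 from 56865033 to 56899870. *Matn4* (ENSMUSG00000016995) and *Bcas1* (ENSMUSG00000013523) are both minus-strand genes of chromosome 2, from 164389393 to 164405160 and from 170346991 to 170427845. *Enpp6* (ENSMUSG00000038173) lies on the plus strand of chromosome 8 from 46986887 to 47096762. *Tns3* (ENSMUSG00000020422), *Itpr2* (ENSMUSG00000030287), *Gpr17* (ENSMUSG00000052229) and *Tmem163* (ENSMUSG00000026347) lie on the minus strands of chromosomes 11, 6, 18 and 1. The genes are thus spread over 8 chromosomes.

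RefSeq start sites (GRCm38.p6, from 250 bases before to 50 bases after the start) were available for 8 of the 10 genes, with 9 start sites in all. Those of the newly formed genes *Bcas1* and *Gpr17* were missing, so these genes were not searched. They were searched on both strands for ACAAAG and for ACAATG, which SOX factors bind, for the E-boxes CAGCTG and then CATCTG of OLIG and related factors, and for the MYRF letters CTGGCAC and also CTGGTAC, because SOX10, OLIG2 and MYRF act in this lineage. The stretches of 28 bases that held a motif, with the motif in capitals and read along the gene, were these:
Pdgfra (precursor, chr5:75152058-75152085, plus strand): ccaccccacccCATCTGgtttgctcccc
Lhfpl3 (precursor, chr5:22745890-22745917, plus strand): aggcttCAGCTGcagCAGCTGcagcaac
Matn4 (precursor, chr2:164404797-164404824, minus strand): ccgcccgactcCAGCTGtagcccaattc
Enpp6 (newly formed, chr8:46986657-46986684, plus strand): gtttaccaaaaACAATGaggttgtattt
Tns3 (newly formed, chr11:8664661-8664688, minus strand): gaaacgcaggaCATTGTtaggaagatga

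CAGCTG was found in the precursor genes *Lhfpl3*, with 2 copies, and *Matn4*, and CATCTG in *Pdgfra*. The SOX letters ACAATG were found in the newly formed genes *Enpp6* and *Tns3*, in *Tns3* as the reverse complement. With *Bcas1* and *Gpr17* not searched, the stages cannot be compared by motif. Over all 32851 promoters of this length, 16.3% held CAGCTG, 17.2% held CATCTG and 12.6% held ACAATG. The SOX letters ACAAAG, present in 18.7% of all promoters, and both MYRF motifs, present in 5.01% and 2.24%, were not found in any of the 9 promoters. No motif was found in those of *Cspg4*, *Itpr2* and *Tmem163*. A match describes these letters and is no evidence of binding.

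Of the precursor genes, 3 were not lower in cko NSCs. *Pdgfra*, the receptor through which PDGF-A drives precursor division, was measured at 210.1 and 145 CPM in ctrl libraries 1 and 3 and at 268, 227 and 233 CPM in cko libraries 1, 2 and 3. Every cko library lay above the ctrl libraries, and log2FC was 0.45 (SE 0.16), or 0.21 without ctrl library 3 and 0.73 without ctrl library 1. In bulk RNA, fewer or more cells of a stage and less or more RNA in each of them cannot be told apart. *Lhfpl3*, a tetraspan membrane protein of the LHFPL family, lay at 183 and 157 CPM in ctrl and at 271, 208 and 220.3 CPM in cko, again without overlap (log2FC 0.45, SE 0.13). *Cspg4* encodes the NG2 proteoglycan, and its levels were 193 and 389 CPM in ctrl and 278, 369 and 384 CPM in cko libraries. The ctrl libraries differed 2.02-fold from each other and spanned all the cko libraries. Its log2FC of 0.24 (SE 0.28) turned to -0.19 without ctrl library 1 and was 0.84 without ctrl library 3. The fourth precursor gene, *Matn4*, went the other way. It encodes matrilin-4, a secreted matrix protein, and its level went from 4.15 and 6.40 CPM in ctrl to 1.90, 1.67 and 1.65 CPM in cko libraries (log2FC -1.59, SE 0.27). This rested on 95 and 120 counts in ctrl and 34, 39 and 36 in cko libraries, and *Matn4* was no longer past the adjusted p threshold without cko library 2 or without cko library 3 (log2FC -1.58 and -1.57).

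**Figure D1:**
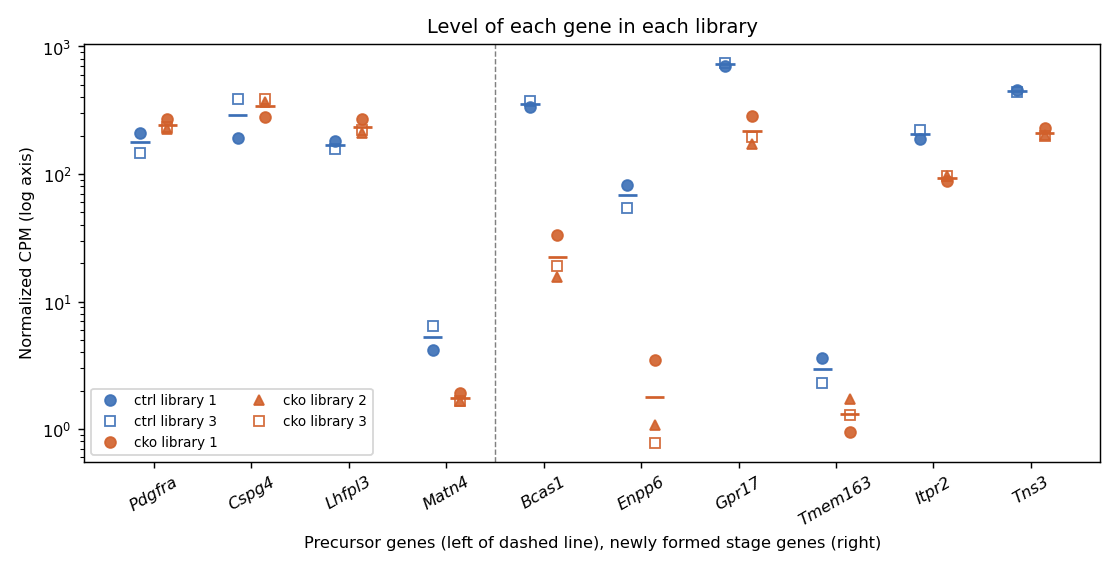
Normalized CPM of the 10 genes in each of the 5 libraries, on a log axis, with ctrl libraries in blue, cko libraries in orange and a short bar at each genotype's mean. The cko points lie below the ctrl points in all 6 newly formed genes and in *Matn4*, above them in *Pdgfra* and *Lhfpl3*, and among them in *Cspg4*.

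All 6 genes of the newly formed stage were lower in each cko library than in either ctrl library, by 2.12-fold to 40.2-fold. They were chosen as lower, and 24.3% of all tested genes also had every cko library below the ctrl libraries. The largest differences belonged to *Enpp6* and *Bcas1*. *Enpp6* encodes a choline-specific phosphodiesterase that marks oligodendrocytes just leaving the precursor state, and it lay at 81.8 and 54.5 CPM in ctrl and at 3.47, 1.07 and 0.78 CPM in cko libraries. This is a log2FC of -5.33 (SE 0.45), from 1872 and 1022 counts to 62, 25 and 17. *Bcas1*, a protein of early myelinating oligodendrocytes, fell from 335 and 371 CPM to 33.3, 15.4 and 18.9 CPM (log2FC -3.98, SE 0.28). The third, *Gpr17*, a G protein-coupled receptor that is switched on in committed precursors and off again before maturation, kept a substantial level. It lay at 703.5 and 742 CPM in ctrl and at 286.5, 171 and 196 CPM in cko libraries (log2FC -1.73, SE 0.20).

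The remaining 3 genes were lower by a smaller and similar amount. *Itpr2*, the inositol trisphosphate receptor that releases calcium from the endoplasmic reticulum, lay at 189 and 223 CPM in ctrl and at 87.5, 95.9 and 96.6 CPM in cko libraries (log2FC -1.14, SE 0.093). *Tns3*, a focal adhesion adaptor of the tensin family, lay at 453 and 436 against 231, 201 and 199 CPM (log2FC -1.08, SE 0.088). *Tmem163*, a zinc transporter, rested on low counts, 82 and 43 in ctrl and 17, 40 and 28 in cko libraries. Its levels of 3.58 and 2.29 against 0.95, 1.71 and 1.29 CPM gave a log2FC of -1.15 (SE 0.34), and it was the only newly formed gene that did not reach an adjusted p under 0.05 in edgeR.

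Calls were taken at 0.05 after Benjamini-Hochberg adjustment of edgeR's quasi-likelihood p-values over 16710 tested genes. By these, 6 of the 10 genes were lower and 0 higher, where 8.57% of all tested genes were lower and 7.86% higher. In DESeq2 the counts were 6 and 2, with *Pdgfra* and *Lhfpl3* higher. The cko libraries lay wholly below the ctrl libraries in 7 of the 10 genes and wholly above them in 2, against 24.3% and 25.4% of all tested genes. Because this contrast chose the genes, the counts are set beside these shares without a reading. Median log2FC came to 0.34 for the 4 precursor genes and to -1.44 for the 6 newly formed genes, beside -0.003 for all tested genes. Without ctrl library 1 the precursor median was 0.18.

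**Figure D2:**
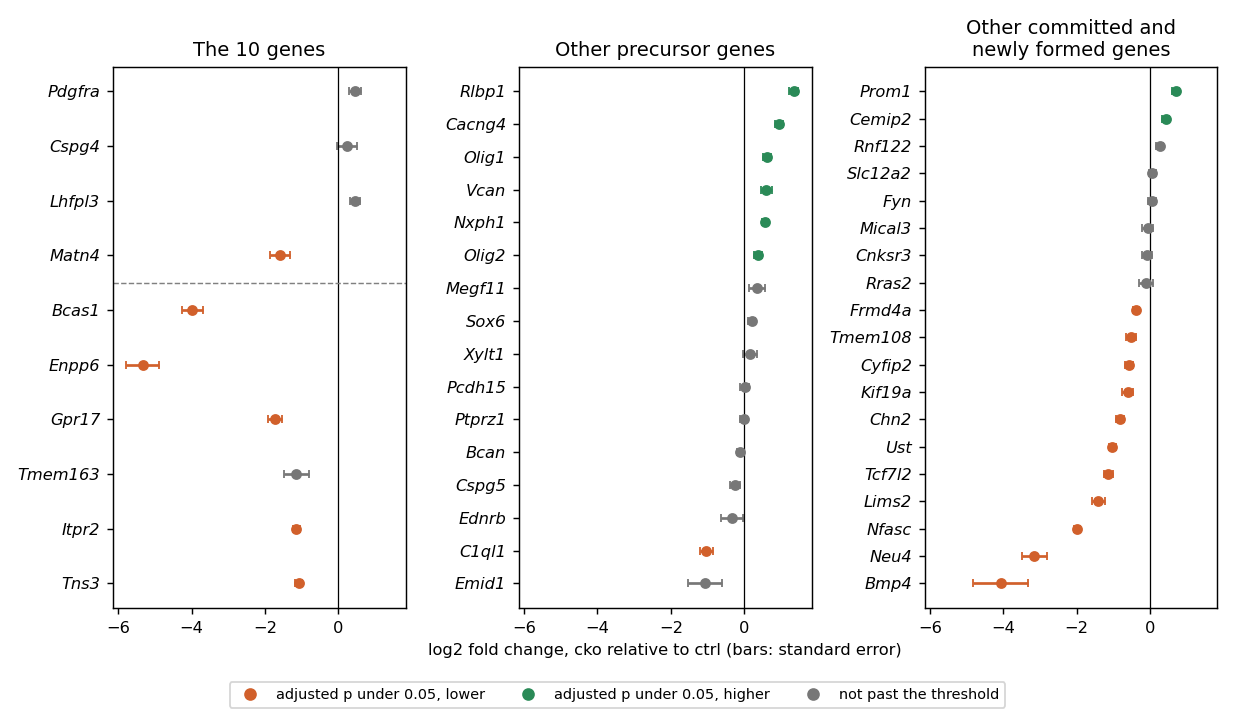
Log2 fold change of cko relative to ctrl NSCs with its SE, for the 10 genes (precursor genes above the dashed line), the other precursor genes and the other committed and newly formed genes, coloured by whether the adjusted p was under 0.05. The first panel runs from -5.33 for *Enpp6* to 0.45 for *Lhfpl3*, and the fitted value of *Bmp4* rests on at most 1 count in each cko library.

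Levels per exon length, CPM per kb, allow the genes to be compared with each other. In ctrl NSCs *Gpr17* was highest at 139 ± 5.27 (SD, n = 2), followed by *Bcas1* at 93.5 ± 6.68, *Lhfpl3* at 52.9 ± 5.65 and *Tns3* at 39.8 ± 1.06 CPM per kb. *Cspg4* at 24.4 ± 11.6 and *Pdgfra* at 17.7 ± 4.57 CPM per kb came next and did not differ beyond their spread, and neither did *Pdgfra* and *Itpr2* at 13.9 ± 1.61. *Enpp6* lay at 10.6 ± 3.0, a spread that overlapped that of *Itpr2*, and *Matn4* (1.02 ± 0.31) and *Tmem163* (0.68 ± 0.21) closed the order, with the spread of the last 2 overlapping. In cko NSCs the order began with a precursor gene. *Lhfpl3* led at 72.5 ± 10.4 (SD, n = 3), before *Gpr17* at 41.9 ± 11.7, *Cspg4* at 28.8 ± 4.83, *Pdgfra* at 24.2 ± 2.19 and *Tns3* at 18.8 ± 1.60 CPM per kb. The spreads of *Gpr17* and *Cspg4* overlapped, though *Gpr17* lay above *Cspg4* in each cko library. *Cspg4* and *Pdgfra* did not differ beyond their spread, and their order was turned in cko library 1 (23.3 and 26.7 CPM per kb). *Bcas1* moved from the second place to the seventh, at 5.97 ± 2.51 CPM per kb, close to *Itpr2* at 6.31 ± 0.34, and *Enpp6* to the last by its mean, at 0.28 ± 0.23, after *Matn4* at 0.34 ± 0.027 and *Tmem163* at 0.31 ± 0.089. The spreads of these 3 genes overlapped, and in cko library 1 *Enpp6* lay above both others, at 0.54 against 0.37 and 0.22 CPM per kb.

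**Figure D3:**
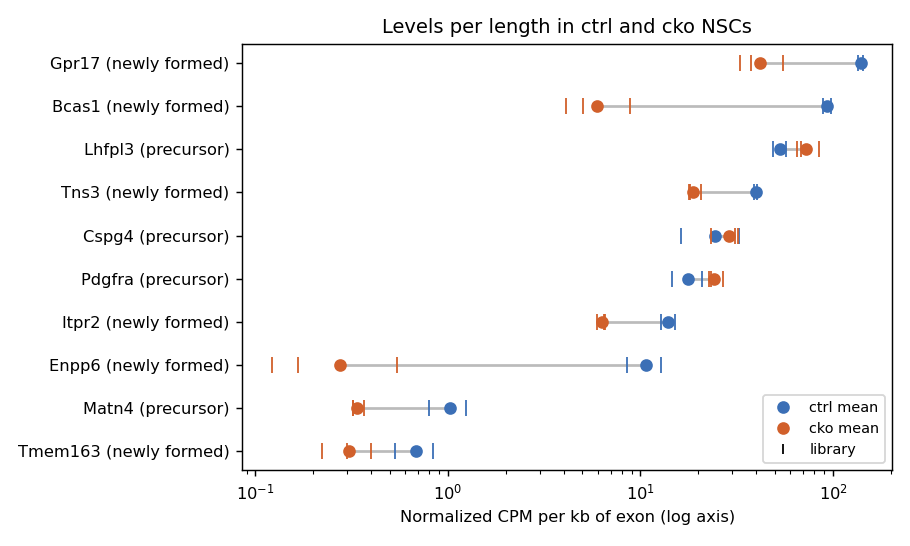
Normalized CPM per kb of exon on a log axis for each gene, with a dot at the mean of ctrl (blue) and cko (orange) NSCs, a tick for each library and a grey line joining the means. The longest lines belong to *Enpp6* and *Bcas1*, and the 3 precursor genes *Lhfpl3*, *Cspg4* and *Pdgfra* are those whose cko mean lies to the right of the ctrl mean.

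Summed per length, the 4 precursor genes gave 94.8 and 97.3 CPM per kb in ctrl libraries 1 and 3 and 135, 119 and 124 CPM per kb in the cko libraries. The 6 newly formed genes gave 291 and 304 against 91.3, 62.0 and 67.4 CPM per kb. The ratio of the newly formed to the precursor sum was therefore 3.07 and 3.13 in ctrl and 0.68, 0.52 and 0.54 in cko libraries, and the libraries of a genotype lay close together. *Gpr17* carried 46.5% and 47.0% of the newly formed sum in ctrl and 53.1% to 60.4% in cko libraries, so the ratio was also taken without it. It was then 1.64 and 1.66 in ctrl and 0.27, 0.25 and 0.24 in cko libraries. *Bcas1* carried 30.5% and 32.3% of the sum in ctrl and 6.59% to 9.66% in cko libraries. Within the precursor sum *Lhfpl3* carried 50.3% to 62.6% in the 5 libraries, so the sum followed this gene most. *Matn4*, the precursor gene that was lower in cko, carried only 0.26% to 1.27%.

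**Figure D4:**
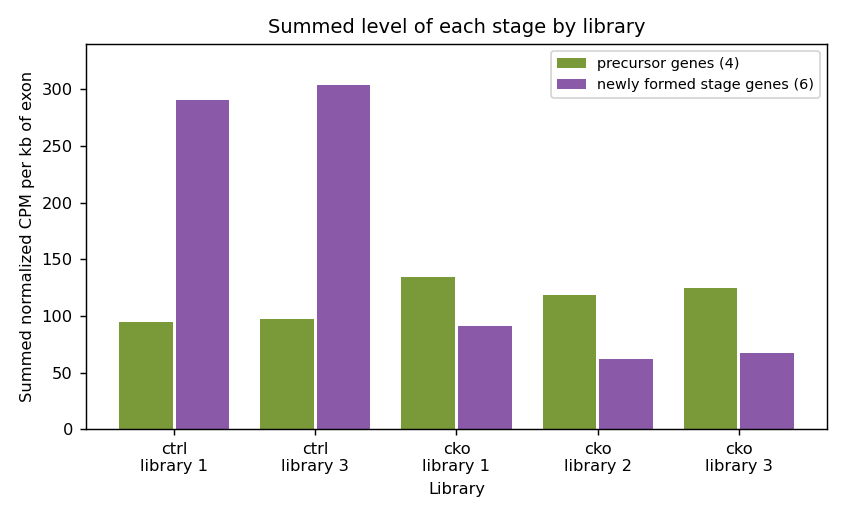
Summed normalized CPM per kb of exon of the 4 precursor genes (green) and the 6 newly formed genes (purple) in each library. The purple bar is the taller in both ctrl libraries, at 291 and 304, and the shorter in all cko libraries, at 62.0 to 91.3.

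The libraries of a genotype were not equally far from each other. In cko library 1, *Enpp6* was 3.74-fold, *Bcas1* 1.94-fold and *Gpr17* 1.56-fold the mean of the other cko libraries, while *Itpr2* was 0.91-fold and *Tmem163* 0.63-fold that mean. Cko library 1 was the highest cko library in 7 of the 10 genes, and in 36.3% of all tested genes. In the same library the summed level of 8 astrocyte markers was 1581 CPM, against 873 and 920.3 CPM in the other cko libraries and 3153 and 2093 CPM in ctrl libraries 1 and 3. Without cko library 1 the median of the newly formed genes was -1.57. Between the ctrl libraries, *Cspg4* and *Matn4* were higher in library 3, by 2.02-fold and 1.53-fold, and *Pdgfra*, *Enpp6* and *Tmem163* were higher in library 1, by 1.45-fold to 1.54-fold, whereas *Tns3* and *Gpr17* differed by 1.04-fold and 1.06-fold.

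The sources do not say whether reads were counted by strand, and 6 of the 10 genes share exon bases with another gene. *Bcas1* shares 440 bases with *Bcas1os1* and 34 with *Bcas1os2* on the opposite strand, and these also lay lower in all cko libraries, *Bcas1os2* with 188 and 213 counts in ctrl against 11, 10 and 3 in cko. Its counts are few beside those of *Bcas1*. *Gpr17* shares 188 bases with *Lims2*, which fell from 62.5 and 85.7 to 33.8, 25.0 and 24.9 CPM (log2FC -1.41, adjusted p = 0.00352 in edgeR). *Lims2* is also listed among the newly formed genes, and the reads of this overlap cannot be assigned. *Tmem163* shares 152 bases with *Mgat5*, whose 56.9 to 67.6 CPM far exceeded its own level, and the reads of this overlap cannot be assigned either. *Lhfpl3* shares 567 bases, 17.6% of its exon length, with *A930003O13Rik*, which lay at 4.11 to 6.80 CPM. *Matn4* shares 149 bases with *Rbpjl*, at most 8 counts in any library, and *Pdgfra* shares up to 456 bases with antisense transcripts.

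The other gene lists were also chosen with earlier results of these data known, so their counts and adjusted p-values are a description. Among 16 other genes of the precursor stage, 6 rose, 1 fell and 9 did not pass the test at an adjusted p under 0.05 in edgeR. Of all tested genes, 7.86% were higher and 8.57% lower. The median log2FC of the 16 genes was 0.18. *Rlbp1*, which encodes a retinaldehyde-binding protein, rose from 75.6 and 78.9 to 229, 184 and 179 CPM (log2FC 1.35, SE 0.12, adjusted p = 0.00142 in edgeR). *Cacng4*, an auxiliary subunit of AMPA receptors, rose with a log2FC of 0.95 (adjusted p = 0.00262 in edgeR). The lineage factors *Olig1* and *Olig2* and the proteoglycan gene *Vcan* were among the genes that rose, *Olig2* by 0.38 on the log2 scale (adjusted p = 0.0444 in edgeR). *C1ql1*, a secreted C1q-like protein, fell with a log2FC of -1.03 (adjusted p = 0.0107 in edgeR). Without cko library 2 or without cko library 3, the counts were 3 higher and 0 lower. OLIG2 acts along the whole lineage, so the counts of this list are not of precursor genes alone. *Sox10*, also a factor of the whole lineage, was not in the list and went the other way. It lay at 162 and 190 against 54.4, 41.2 and 45.3 CPM (log2FC -1.90, SE 0.13, adjusted p = 0.000668 in edgeR).

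The other committed and newly formed genes, also listed with earlier results known, held more genes that fell than rose. Of 20 listed genes 19 were tested, *Casr* having 0 counts in each library. Of these, 11 fell, 2 rose and 6 did not pass the test, with a median log2FC of -0.52. Of all tested genes, 8.57% were lower and 7.86% higher. *Neu4*, a sialidase of committed precursors, fell from 6.42 and 11.4 to 1.29, 0.94 and 0.78 CPM (log2FC -3.15, SE 0.33, adjusted p = 0.00224 in edgeR). *Bmp4*, a BMP ligand also made by committed precursors, had 13 counts in each ctrl library and 0, 1 and 1 in cko libraries. *Prom1* and *Cemip2* rose, by 0.70 and 0.43 on the log2 scale (adjusted p = 0.00435 and 0.0286 in edgeR). Without cko library 2 or without cko library 3, the counts were 6 lower and 1 higher. Among 12 listed genes of later stages, 6 of 9 tested fell and 0 rose, with a median of -1.12. *Mobp*, *Opalin* and *Ermn* were not tested. *Mobp* had 3 and 5 counts in ctrl and 0 in each cko library, and *Opalin* 15 and 7 against 6, 10 and 3. *Ermn* went the other way, with 1 count in each ctrl library and 4, 6 and 7 in cko libraries. *Myrf* fell from 100.5 and 90.2 to 14.7, 11.5 and 12.2 CPM (log2FC -2.90, adjusted p = 0.000146 in edgeR), and *Mag* went from 84 and 48 counts to 0, 2 and 0.

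The PDGF ligands and the other PDGF receptor were measured beside *Pdgfra*. *Pdgfa*, the main ligand for precursors, lay at 19.1 and 18.9 CPM in ctrl and at 15.9, 15.1 and 15.2 CPM in cko libraries, a log2FC of -0.30 (SE 0.11, adjusted p = 0.104 in edgeR). *Pdgfc* did not pass the test either (log2FC -0.24, adjusted p = 0.474 in edgeR), and neither did the other receptor of the family, *Pdgfrb*, at 0.28 to 1.05 CPM. *Pdgfd*, whose product signals through PDGFRβ, had 12 and 14 counts in ctrl and 3, 0 and 0 in cko libraries, and was past the threshold (adjusted p = 0.0489 in edgeR). *Pdgfb* had 0 counts in each library. The list held 1 gene that fell and 0 that rose among 4 tested, with a median of -0.41, beside 8.57% and 7.86% of all tested genes.

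Relatives of the 10 genes did not move as a block. Of 24 listed, 22 were in the table and 15 were tested. Among these, 3 fell, 2 rose and 10 did not pass the test, with a median log2FC of -0.20. Over all tested genes the shares were 8.57% lower and 7.86% higher. *Matn1*, another matrilin, fell from 90 and 116 counts to 2, 4 and 9 (log2FC -4.38, SE 0.46, adjusted p = 0.00221 in edgeR), while *Matn2*, at 5.20 and 7.36 against 4.76, 6.30 and 5.15 CPM, had a log2FC of -0.21 (adjusted p = 0.571). *Enpp2*, the autotaxin gene, lay at 293 and 172 against 256, 213 and 219 CPM with a log2FC of -0.02 (adjusted p = 0.958 in edgeR), where *Enpp3* rose by 1.66 on the log2 scale (adjusted p = 0.00424). *Lhfpl4* rose (0.46, adjusted p = 0.0220) and *Lhfpl2* fell (-0.78, adjusted p = 0.0311 in edgeR). *Tns1* fell with a log2FC of -0.52 (SE 0.094, adjusted p = 0.0122 in edgeR), and *Itpr1* had one of -0.45 (adjusted p = 0.111). *Cspg5*, a brain proteoglycan, had a log2FC of -0.26 (adjusted p = 0.228 in edgeR). *P2ry14*, of the nucleotide receptors related to GPR17, lay at 0.11 to 0.60 CPM.

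Markers of other cell types were read beside these genes, since *Pdgfra* is also expressed by fibroblasts and *Cspg4* by mural cells. The 8 mural markers summed to 1.92 to 2.10 CPM in ctrl and 1.12 to 1.56 CPM in cko libraries, with *Kcnj8* and *Anpep* at or under 3 counts in every library. The 7 fibroblast and meningeal markers summed to 18.7 and 40.4 CPM in ctrl and 5.60 to 8.87 CPM in cko libraries, most of it *Fn1*, and *Postn* was at or under 3 counts in every library. These levels lay below those of *Pdgfra* and *Cspg4* in each library, and the sums were lower in cko NSCs. Whether such cells had a part in the levels of *Pdgfra* and *Cspg4* was not tested. Microglia markers summed to at most 1.12 CPM, endothelial markers to 4.32 to 6.76 CPM, and Schwann cell and neural crest markers to 21.2 and 27.0 CPM in ctrl and 14.2 to 15.9 CPM in cko libraries. Of the astrocyte markers 5 of 8 fell and 0 rose, with a median log2FC of -1.16, and their summed level was lower in every cko library than in the ctrl libraries. Their part in the levels of the newly formed genes was not tested. Of the NSC markers 2 of 10 tested rose, among them *Nes*, and 1 fell, and of the neuronal markers 2 of 7 tested rose and 1 fell. Beside these marker counts, 8.57% of all tested genes were lower and 7.86% higher.

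Over the 5 libraries, the tested genes nearest to the mean pattern of the 6 newly formed genes, by Euclidean distance between centred log2 CPM, were *Col11a2* (distance 0.28), *Srcin1* (0.31) and *1700029J07Rik* (0.36). *Col11a2* lay at 20.8 and 20.01 CPM in ctrl and at 3.97, 2.79 and 3.26 CPM in cko libraries. For the 4 precursor genes the nearest were *Gnaq* (0.033), *Mphosph10* (0.039) and *Nf2* (0.042), whose log2FC values of -0.06, -0.05 and -0.10 are close to 0, since the mean holds *Matn4*, lower in cko, beside the other 3 genes.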

How the data were processed

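Reads of NSC libraries were filtered with NGSQC and aligned to mm10 with HISAT2 according to the paper's methods, and the authors deposited unnormalized counts per Ensembl gene, 6 columns in all. The submitters' processing notes name GRCm39 in place of mm10. The counting tool, annotation and strand setting are not given in the sources used here. Symbols came from a reference list of gene names, which matched 31829 of 32493 IDs. Positions and exon lengths came from GENCODE M21 (GRCm38), and promoters from RefSeq (GRCm38.p6).

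Counts of 2 ctrl and 3 cko libraries were analysed with edgeR 4.0.16 in R 4.3.3. Genes kept by filterByExpr (16710) were scaled by TMM (factors 0.990 to 1.01) and tested by the quasi-likelihood test, with Benjamini-Hochberg adjustment over all of them. CPM per kb divides CPM by the union of annotated exons. Standard errors follow from the fold change and the F statistic. Fits were tested on simulated data with known changes.

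The 10 genes and all lists were chosen with earlier results of these data known. Besides the 10 genes, the genes named are up to 2 that rose and 2 that fell with the largest changes in each list, the most abundant relative of each gene and the 3 nearest in pattern. Others, such as *Olig1*, *Olig2*, *Vcan*, *Sox10*, *Xist*, *Kdm5d*, *Mki67* and genes with overlapping exons, were named after their values were seen. Of 154 listed genes, 3 were not matched. The alternatives tried were size factors by median of ratios, DESeq2 1.42.0, other filters, a replicate block, all 6 columns, the study's threshold and leaving out each library. Figures were drawn with matplotlib 3.10.9.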

Additional observations from a re-analysis of the deposited data

How the results depend on the processing

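The 6 newly formed genes kept a negative log2 fold change under all 11 alternatives. The calls of *Bcas1*, *Enpp6*, *Gpr17*, *Itpr2* and *Tns3* were kept in each that held both ctrl libraries. The fits without ctrl library 1 or without ctrl library 3 left 1 ctrl library. There the log2FC of these genes ran from -5.60 for *Enpp6* to -1.02 for *Itpr2*, both without ctrl library 3. *Pdgfra* and *Lhfpl3* stayed positive, and were past the threshold under 5 of the 11, among them DESeq2 and the fit without ctrl library 1 (0.73 and 0.56). Without ctrl library 3 they were at 0.21 and 0.35 and did not pass. *Tmem163* passed under 4. *Cspg4* turned to -0.19 without ctrl library 1 and passed at 0.84 without ctrl library 3. The number of the 10 genes called went from 5 to 8 when a library was left out, and the median of the precursor genes from 0.18 to 0.34 and of the newly formed genes from -1.57 to -1.43.

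Over all genes, 2746 calls became 5659 with all 6 columns and 1095 at the study's threshold (p under 0.01 without adjustment, log2FC past 0.9 either way), and 733 to 3743 when a library was left out. At that threshold, 3 of the other precursor genes and 6 of the other committed and newly formed genes were called. Leaving out a library gave 3 to 10 and 7 to 13, and no filter gave 11 of the other precursor genes. The labels share replicate numbers between genotypes without saying what they mark, and libraries of the same number deviated together only weakly (r = 0.113 across 16710 genes, which are not independent). With the replicate number as a block, which takes the difference from replicates 1 and 3 only, 6 of the 10 genes were lower and 2 higher, and 1983 genes were called over all. With all 6 columns, the mean of the ctrl libraries was counted as a further library, so those 5659 calls do not rest on independent libraries. The causes of the shifts under the other settings were not tested. Counts were low for *Matn4* and *Tmem163* in every library, at 17 to 120, and for *Enpp6* in cko libraries, at 17 to 62, which limits the precision of their values.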
